A study of Mus musculus with 24 samples.

Results

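Embryonic stem (ES) cells of the mouse that lacked the transcription factor gene Dux (Dux KO) were set against wild-type ES cells (WT). The members were chosen by their labels alone and comprise 6 of the 18 biological samples of the series, in 9 of its 24 libraries, with 3 Dux KO replicates sequenced once and 3 WT replicates sequenced in 2 technical runs each. The deposited table lists 37310 gene entries, and 16200 of them reached at least 0.5 counts per 1e6 counts (CPM) in at least 3 biological samples and were tested. The series sequenced RNA from ES cells that lacked Smchd1, Dux, both genes (Double KO), the Tet genes, or the Tet genes and Smchd1. All cells grew without feeder cells on gelatin in serum with LIF, and the libraries were made from whole-cell total RNA after removal of ribosomal RNA. Dux KO is labelled as a loss of Dux alone and WT as carrying no knockout. The labels do not name the parental line, the deleted stretch of DNA, or whether the replicates of a genotype were separate clones or cultures. The spread between replicates may therefore be technical. The p-values below rest on 1 spread per gene, pooled over the replicates of Dux KO, WT, Double KO and Smchd1 KO. They take no account of a spread that differs between these genotypes. Double KO cells, labelled as lacking both genes, and Smchd1 KO cells, 3 replicates each, are used for a further comparison of cells without and with Dux.

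DUX is a double-homeobox transcription factor that is made briefly in the embryo at the 2-cell stage, when the embryonic genome is first transcribed. It switches on a set of genes and retroviral elements of that stage, among them the Zscan4 family. A small and changing fraction of ES cells in serum enters a state that resembles the 2-cell embryo, and DUX is needed for that state.

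The samples expressed the markers of the labelled cell type. All 8 defining markers of ES cells were kept, 1 of them, Utf1, fell, and their summed level was 3560.1 to 3947 CPM in Dux KO and 4137 to 4224 CPM in WT. Pou5f1, which encodes the core pluripotency factor OCT4, had 548, 481 and 459.7 CPM in the Dux KO replicates and 685, 668 and 646 CPM in WT (limma, adjusted p = 0.164). Tdgf1, the Nodal co-receptor, had 739, 1004 and 822 CPM in Dux KO and 984, 1093 and 1007 CPM in WT (adjusted p = 0.388).

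Depth and spread differed between the genotypes. Gene reads per library ran from 13207632 to 15550217 in Dux KO and from 16957263 to 74448358 per WT run. The median gene had an SD of log2(CPM + 0.5) over replicates of 0.30 in Dux KO and 0.05 in WT. Between replicates, the typical squared difference was 19.05 to 36.9 times that of counting error in Dux KO and 2.07 to 2.28 times in WT. The WT replicates thus differed from each other no more than technical runs of 1 WT replicate did, at 2.34 to 2.85 times. Single Dux KO libraries stood apart on whole chromosomes. Among genes above 5 CPM in WT, the median log2 deviation of chromosome 6 from the WT mean was -0.29, -0.58 and -0.05 in Dux KO replicates 1, 2 and 3, and that of chromosome 8 was -0.14, -0.13 and -0.56. Chromosome 1 lay at 0.06, 0.07 and 0.08, and the other 17 chromosomes lay between -0.25 and -0.01. In the WT replicates those 17 medians stayed between -0.01 and 0.01. Named genes on these chromosomes are therefore given below also after the median of each chromosome in each sample had been centred, where that ended a call.

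**Figure D1:**
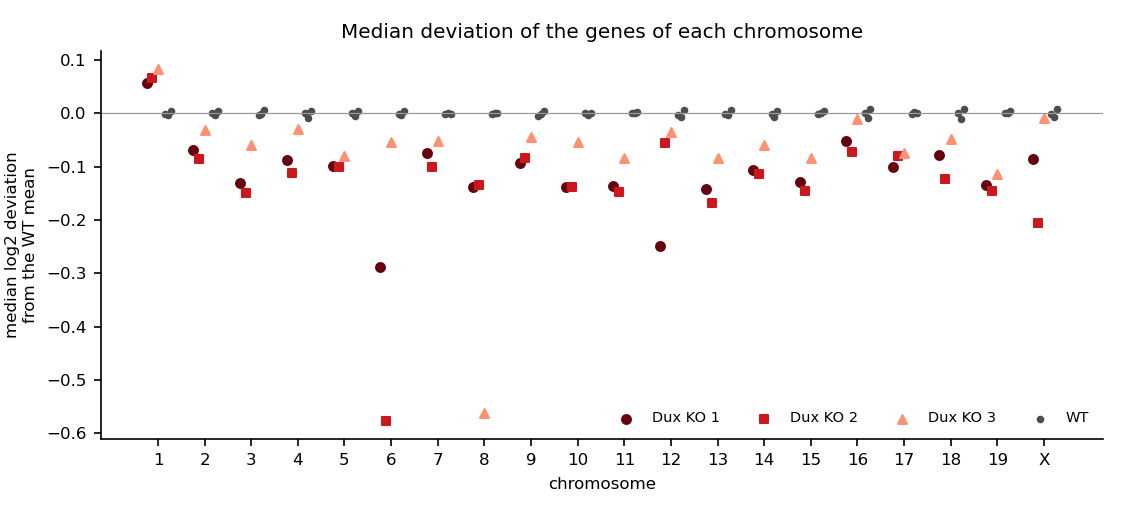
The plot gives, for each chromosome (x axis), the median over genes above 5 CPM in WT of the log2 deviation from the WT mean (y axis), 1 symbol per Dux KO replicate and small grey points for the 3 WT replicates. Chromosome 6 is lowest in Dux KO replicate 2 (-0.58) and chromosome 8 in Dux KO replicate 3 (-0.56), while the WT points lie near 0.

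The targeted gene was barely transcribed in either genotype. The entry that the table names Dux (ENSMUSG00000058537.2, chromosome 10), which GENCODE M21 calls AW822073, had 6, 0 and 0 reads in the Dux KO replicates and 2, 8 and 10 reads in WT. Gm10807 (ENSMUSG00000075046.3, chromosome 10), which GENCODE M21 calls Duxf3, the current symbol of mouse Dux, had 2, 0 and 0 reads in Dux KO and 3, 8 and 6 reads in WT. Duxbl, a related double-homeobox gene, had no read in any of the 6 samples. Dux KO replicate 1 thus held reads at both Dux entries, and these entries did not reach the filter, so the knockout label could not be checked from them. Smchd1 had 174, 191 and 213 CPM in Dux KO and 207, 203 and 207 CPM in WT, and the ranges overlap.

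Loss of Dux went with a loss of transcripts of the 2-cell program. Of the 79 entries of 5 lists of 2-cell-stage genes, 57 (72.2%) had no read in any Dux KO library and 18 (22.8%) had none in WT, against 36.5% in Dux KO and 30.4% in WT over all 37310 entries. Depth differs, with 42364994 gene reads in Dux KO and 216383363 in WT. At a common limit of 0.0694 CPM, the level of 3 reads over the Dux KO group, 64 of the 79 entries lay under it in Dux KO and 31 in WT, against 45.7% of all entries in Dux KO and 47.7% in WT. The filter kept 41 of the 79, through their levels in WT or in Smchd1 KO, so the kept genes are weighted towards those that are present where Dux is intact. Of these, 18 fell, none rose and 23 did not pass (limma, adjusted p under 0.05). Over all genes tested, 2.35% fell and 1.63% rose. The median log2 change of the 41 was -0.85, or -2.16 with genes without reads in Dux KO set at the limit that 3 reads over the group allow, against -0.03 over all genes. These are bulk samples, in which fewer cells in the 2-cell-like state and less RNA per cell cannot be told apart. The 18 falls became 2, 8 and 2 without WT replicate 1, 2 or 3, and 18, 15 and 21 without Dux KO replicate 1, 2 or 3. A larger added constant of 2 left 9, and DESeq2 on the recovered reads gave 29.

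The Zscan4 genes encode proteins with a SCAN domain and zinc fingers that mark the 2-cell-like state and act on telomeres. All 6 entries fell. Their summed level was 0, 0 and 0 CPM in the Dux KO replicates, against 10.9, 9.61 and 10.3 CPM in WT, so no read of the family was seen in Dux KO. Zscan4d (ENSMUSG00000090714.1) had 0, 0 and 0 CPM in Dux KO and 3.65, 3.14 and 3.26 CPM in WT, which makes it at least 48.2-fold lower in Dux KO (limma, adjusted p = 0.000884). Zscan4c had 0, 0 and 0 CPM in Dux KO and 2.46, 1.97 and 2.15 CPM in WT and was at least 31.6-fold lower (adjusted p = 0.00555). Zscan4e, Zscan4-ps2, Zscan4f and Zscan4b were also without reads in Dux KO. Their bounds ran from at least 22.5-fold lower for Zscan4e to at least 10.5-fold lower for Zscan4b. The copies are nearly identical in sequence, and how reads that fit several copies were counted is not given in the sources used here, so the split between copies is less certain than the family sum. The bounds cover counting error only.

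The sequences just upstream of the genes that fell were read to see what the family shares. RefSeq promoters on GRCm38.p6 were found for 6 of the 18 genes, namely Zscan4b, Zscan4c, Zscan4d, Zscan4f, BB287469 and Usp26. The 250 bases before the annotated start are shown for a pair of Zscan4 copies, because of their near identity, and for Usp26, the fallen 2-cell gene that kept reads in all Dux KO libraries. Capitals mark AATCA or its reverse complement, an arm of the motif described for mouse DUX.
Zscan4c, chr7:11005495-11005744, plus strand: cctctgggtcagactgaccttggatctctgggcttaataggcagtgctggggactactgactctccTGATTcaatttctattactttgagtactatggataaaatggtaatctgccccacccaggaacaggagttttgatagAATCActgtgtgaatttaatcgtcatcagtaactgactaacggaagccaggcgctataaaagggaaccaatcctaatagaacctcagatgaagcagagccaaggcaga
Zscan4d, chr7:11166149-11166398, minus strand: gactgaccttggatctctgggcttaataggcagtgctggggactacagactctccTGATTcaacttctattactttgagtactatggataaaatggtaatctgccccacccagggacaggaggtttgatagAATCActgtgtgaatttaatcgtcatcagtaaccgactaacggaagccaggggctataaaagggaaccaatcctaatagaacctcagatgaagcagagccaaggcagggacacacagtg
Usp26, chrX:51801234-51801483, minus strand: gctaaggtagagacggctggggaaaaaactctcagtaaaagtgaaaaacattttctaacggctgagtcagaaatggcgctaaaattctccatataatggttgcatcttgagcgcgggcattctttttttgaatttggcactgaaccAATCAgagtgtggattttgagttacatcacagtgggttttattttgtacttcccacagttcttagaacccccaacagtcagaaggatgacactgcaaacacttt
The windows of Zscan4c and Zscan4d were 97.1% identical over 239 aligned bases, and the 6 pairs among the 4 Zscan4 windows ran from 94.7% to 99.6%. Searched on both strands, AATCA was found in 6 of the 6 windows and in 33.7% of the same stretch of 32851 RefSeq promoters. Of the 6 windows, 4 are the near-identical Zscan4 copies and are not independent of each other. A match of these letters is a description of the sequence and does not mark a binding site.

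The Usp17 family encodes deubiquitinases of the DUB type. Of its 5 entries, 4 fell, and its summed level was 0.0746, 0.0687 and 0 CPM in Dux KO, against 4.28, 3.96 and 3.14 CPM in WT. Usp17l5 had no read in Dux KO and 1.02, 0.943 and 0.841 CPM in WT, which makes it at least 13.5-fold lower (limma, adjusted p = 0.00835). Dub1a and Dub1 were at least 9.97-fold and 8.23-fold lower. Dub3 kept 1 read in Dux KO and was 55.4-fold lower there, with a counting interval of 9.85 to 2195. Dub3, Dub1a and Dub1 are neighbours on chromosome 7, and the copies are similar in sequence.

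Genes that resemble Eif1a, which encodes a translation initiation factor, form a further 2-cell family. Of 15 entries 6 were kept and 4 fell, with a summed level of 0.149, 0.0687 and 0 CPM in Dux KO and 7.15, 6.90 and 8.16 CPM in WT. Gm5662 had 0.0746, 0 and 0 CPM in Dux KO and 2.16, 1.99 and 2.58 CPM in WT (limma, adjusted p = 0.00555). Its ratio of 103 rests on a single read in Dux KO and has a counting interval of 18.4 to 4079. BB287469 had no read in Dux KO and 1.29, 1.59 and 1.35 CPM in WT, at least 20.3-fold lower. Of 22 entries of Prame-like genes, a large family expressed in germ cells and early embryos, 6 were kept. Gm12794 was the one that fell, with no read in Dux KO and 1.01, 0.935 and 1.07 CPM in WT, at least 14.5-fold lower. Gm13119 of the same list had 0.0746, 0 and 0 CPM in Dux KO and 0.704, 0.507 and 0.495 CPM in WT (adjusted p = 0.0503). All 6 kept Prame-like genes lay lower in every Dux KO replicate than in any WT replicate. They were kept through their levels in WT or Smchd1 KO, so the 23.1% of all genes tested with that pattern is not a like measure.

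Among the 31 other 2-cell-stage entries, 18 were kept and 3 fell. Usp26 (ENSMUSG00000055780.4), a deubiquitinase gene on the X chromosome, had 1.04, 1.24 and 4.13 CPM in Dux KO and 13.4, 13.5 and 14.2 CPM in WT (log2 change -2.62 ± 0.39 SE, limma, adjusted p = 0.00917). Dux KO replicate 3 held more of it than the other two, and all 3 lay well under WT. Gm8994 had no read in Dux KO and 2.54, 2.54 and 2.57 CPM in WT, at least 36.7-fold lower (adjusted p = 0.000884). Gm6189 was at least 10.4-fold lower. Not all genes linked with this stage followed. Dppa2, which encodes an activator of Dux that ES cells also express, had 100.4, 38.7 and 49.2 CPM in Dux KO and 85.6, 77.6 and 79.8 CPM in WT (adjusted p = 0.346), so its groups overlap. None of the 26 activators and repressors of Dux that were tested passed, beside 3.98% of all genes tested. Of the 26, 13 lay lower in every Dux KO replicate than in any WT replicate, beside 23.1% of all genes. Their median log2 change was -0.25, against -0.03 over all genes. Trim28, which encodes a corepressor that silences Dux and retroviral elements, had 1277, 941 and 845 CPM in Dux KO and 1426, 1350.0 and 1418 CPM in WT (adjusted p = 0.157).

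**Figure D2:**
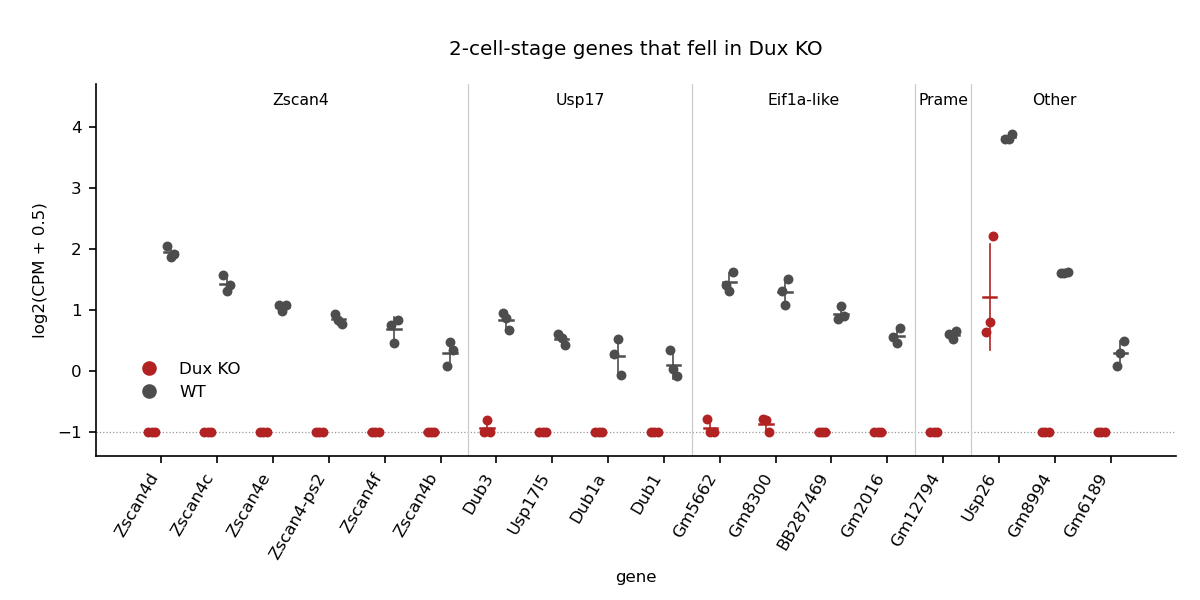
The plot gives log2(CPM + 0.5) (y axis) of the 18 2-cell-stage genes that fell (x axis, grouped by list), with 1 point per replicate, a bar at the mean and a line for the SD. Dux KO points lie at or next to the dotted line, which marks 0 CPM, in all genes but Usp26, and every WT point lies above the Dux KO points of its gene.

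Over all genes tested, 264 rose and 380 fell in Dux KO, the 18 falls of 2-cell-stage genes included, which is 1.63% and 2.35% of the genes tested and 3.98% in either direction. Of the 644, 194 changed at least 2-fold, with 125 higher and 69 lower. In all 644 the 3 Dux KO and 3 WT values did not overlap, a pattern that 16.5% of all genes showed upward and 23.1% downward. The edgeR quasi-likelihood test on the recovered reads called 933 genes, 578 higher (3.57% of the genes tested) and 355 lower (2.19%), and shared 584 with limma. Leaving out WT replicate 1, 2 or 3 left 2, 16 and 2 genes, while WT and Dux KO fitted without the other genotypes gave 819.

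H19, a maternally expressed long noncoding RNA of an imprinted region, had the largest fall on the log2(CPM + 0.5) scale among genes of at least 2 CPM. In ratios of CPM several 2-cell-stage genes without reads in Dux KO and Hoxa9 fell further. H19 had 2.61, 1.10 and 1.25 CPM in the Dux KO replicates and 25.4, 27.7 and 26.5 CPM in WT, a 13.2-fold fall (log2 change -3.72 ± 0.48 SE, limma, adjusted p = 0.00598). All Dux KO replicates lay far under all WT replicates. Spna1, the erythroid alpha-spectrin gene, had 13.9, 15.8 and 14.3 CPM in Dux KO and 64.8, 57.7 and 63.6 CPM in WT, a 4.13-fold fall (adjusted p = 0.00586). It lies on chromosome 1 and kept its call after that chromosome was centred (adjusted p = 0.00605). Mt2, a metallothionein that binds zinc, had 39.4, 36.9 and 115 CPM in Dux KO and 234, 220.0 and 211 CPM in WT (adjusted p = 0.0449). Mt2 lies on chromosome 8 and did not pass once chromosomes were centred (adjusted p = 0.0786). H19, Spna1 and Mt2 were also under WT in Smchd1 KO cells, which keep Dux by their label, at means of 9.49, 15.7 and 176 CPM.

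Tmem173, which encodes the innate immune adaptor STING, had 0.597, 0.275 and 0.787 CPM in Dux KO and 3.55, 3.10 and 3.34 CPM in WT, a 3.71-fold fall (limma, adjusted p = 0.00737). Magohb, a core component of the exon junction complex, had 6.71, 8.72 and 19.9 CPM in Dux KO and 39.2, 40.2 and 39.5 CPM in WT (adjusted p = 0.0186). It lies on chromosome 6 with Csda close by, and after centring it still passed (adjusted p = 0.012). Mrc1, the mannose receptor gene of macrophages, had 2.01, 2.33 and 4.72 CPM in Dux KO and 8.77, 9.23 and 9.59 CPM in WT, a 2.90-fold fall (adjusted p = 0.0162). Gm12260, G730013B05Rik and A930038C07Rik fell 3.58-fold, 3.21-fold and 2.87-fold. In Smchd1 KO cells the genes of this paragraph also lay under WT, except G730013B05Rik, which overlapped it. Smchd1 KO means were 2.13 CPM for Tmem173, 23.4 for Magohb and 4.17 for Mrc1. For Gm12260 the Smchd1 KO and WT means were 7.83 and 14.6 CPM, and for A930038C07Rik 0.552 and 2.26 CPM.

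Genes that rose most were of mixed known roles. Gpa33, a cell surface antigen of intestinal epithelium, had 26.5, 29.1 and 19.14 CPM in Dux KO and 3.99, 5.20 and 5.03 CPM in WT, a 4.80-fold rise (log2 change 2.26 ± 0.35 SE, limma, adjusted p = 0.0104). Dusp27, its neighbour on chromosome 1 with no protein-coding or long noncoding gene between them in RefSeq, had 38.1, 22.3 and 17.4 CPM in Dux KO and 5.17, 5.20 and 5.12 CPM in WT (adjusted p = 0.0396). Both kept their calls after chromosome 1 was centred (adjusted p = 0.0103 and 0.0345). Gpa33 was also above WT in Smchd1 KO cells, at 9.13, 18.2 and 6.81 CPM, while Dusp27 overlapped WT there, at 6.13, 10.5 and 3.55 CPM. The pair was singled out after its values were seen.

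Mid1, an X-linked ubiquitin ligase gene whose protein binds microtubules, had 5.59, 8.24 and 4.79 CPM in Dux KO and 1.52, 1.36 and 1.35 CPM in WT, a 3.44-fold rise (limma, adjusted p = 0.0233). Ttll6, which encodes an enzyme that adds glutamate chains to tubulin, rose 3.70-fold, and Col20a1, a collagen gene, 3.91-fold. Syn3, a synapsin gene of nerve terminals, rose 3.09-fold, Dner, a Notch ligand gene of neurons, 3.06-fold, and Slc6a7, a brain proline transporter gene, 2.90-fold. Vwf, the blood clotting factor gene of endothelium, had 29.2, 26.3 and 15.9 CPM in Dux KO and 7.63, 7.33 and 6.74 CPM in WT (adjusted p = 0.0388). Padi2, a peptidylarginine deiminase gene, had 11.9, 24.7 and 24.5 CPM in Dux KO and 6.42, 6.42 and 6.31 CPM in WT (adjusted p = 0.0327). In Mid1, Vwf and Padi2 the Dux KO replicates differed among themselves far more than the WT replicates, and the groups did not overlap. Dner, on chromosome 1, did not pass after centring (adjusted p = 0.0501). Gm13014, Anks1b, Plxdc2, Rgs22 and Myo18b rose 3.59-fold, 3.32-fold, 3.28-fold, 3.14-fold and 3.07-fold. With the trend with transcript length removed from each sample, Col20a1, Vwf and Rgs22 did not pass (limma, adjusted p = 0.0565, 0.0524 and 0.0571). The other genes of this paragraph passed in that fit.

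**Figure D3:**
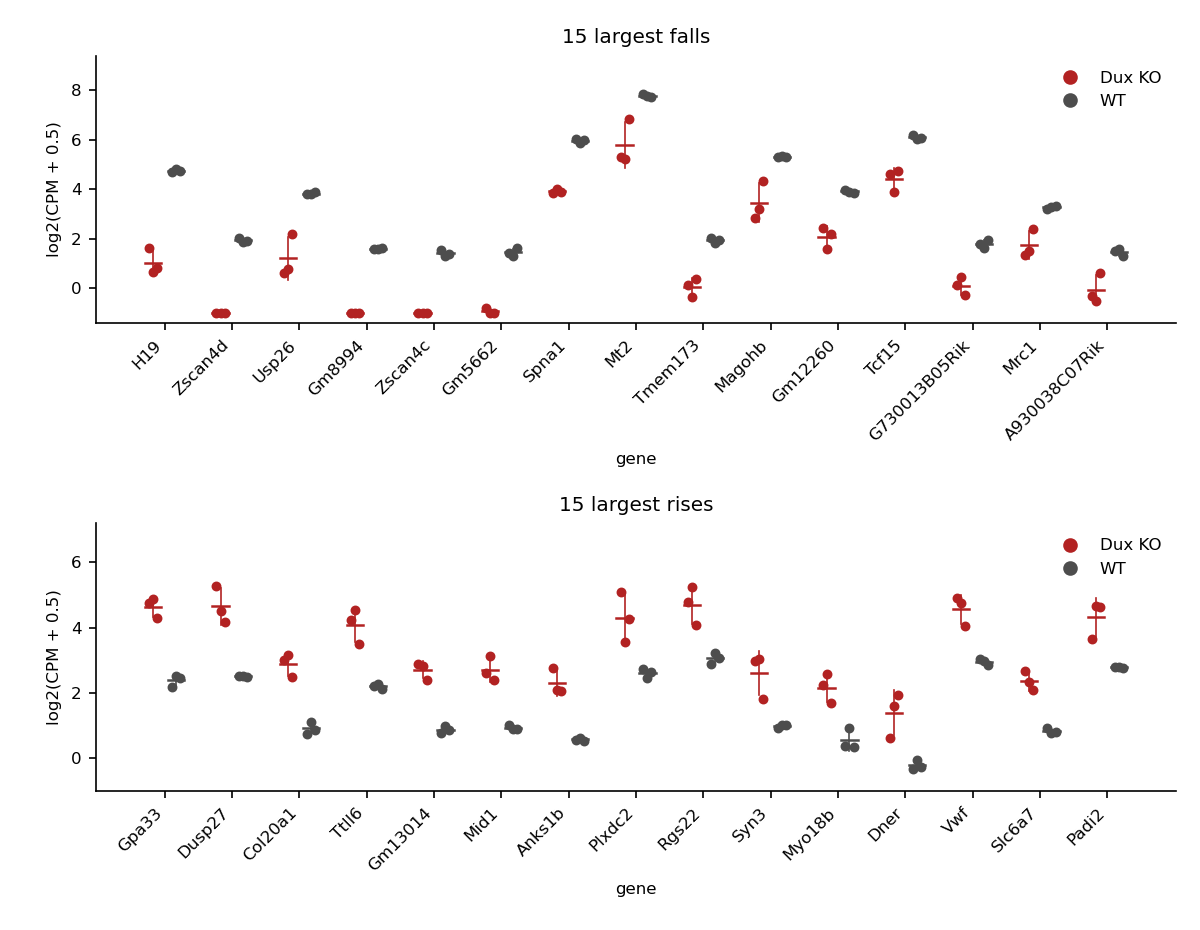
Each panel gives log2(CPM + 0.5) (y axis) for the 15 largest falls (upper panel) and the 15 largest rises (lower panel) among genes of at least 2 CPM in the higher genotype, with 1 point per replicate, a bar at the mean and a line for the SD. Dux KO points lie below the WT points of the same gene in the upper panel and above them in the lower panel, and they are spread more widely than WT in genes such as Mt2 and Plxdc2.

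Among called genes with the highest CPM, the rises included Dst, which encodes a giant linker of cytoskeletal filaments. Dst had 1203, 1032 and 776 CPM in Dux KO and 454, 442 and 449.8 CPM in WT, a 2.20-fold rise (limma, adjusted p = 0.0169). Gas5, a long noncoding RNA that hosts small nucleolar RNAs, had 633, 492 and 380.3 CPM in Dux KO and 269, 267 and 268 CPM in WT (adjusted p = 0.0437). Mdm4, a p53 inhibitor gene, rose 2.06-fold, and Aspm, a spindle pole gene, 1.77-fold. Dst, Gas5, Mdm4 and Aspm all lie on chromosome 1, and each still passed after centring, with limma adjusted p from 0.0131 to 0.0476. Usp48, Brwd1 and 4932438A13Rik rose 1.64-fold, 1.59-fold and 1.68-fold. With the trend with transcript length removed from each sample, Mdm4, Aspm, Brwd1 and 4932438A13Rik did not pass (limma, adjusted p = 0.0545, 0.0512, 0.101 and 0.0705). Dst, Gas5 and Usp48 passed in that fit, and the log2 change of Dst went from 1.14 to 0.64.

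The 8 most abundant falls had varied known roles. Eif5a, a translation factor gene, had 659.6, 550.3 and 646 CPM in Dux KO and 948, 960.0 and 951 CPM in WT (limma, adjusted p = 0.0389). Odc1, the first enzyme of polyamine synthesis, had 331, 259.9 and 387 CPM in Dux KO and 545, 546 and 559 CPM in WT (adjusted p = 0.0281). Gars, the glycyl-tRNA synthetase gene, fell 1.70-fold, and Fasn, the fatty acid synthase gene, 1.57-fold. Csda, a cold shock domain gene, and Tns3, a focal adhesion gene, fell 1.69-fold and 1.75-fold. Gatad2a, a subunit gene of the NuRD repressor complex, and Hmgb2, a chromatin protein gene, fell 1.53-fold and 1.60-fold, but both lie on chromosome 8 and did not pass once it was centred (adjusted p = 0.0644 and 0.0686). Gars, on chromosome 6, and Tns3, on chromosome 11, did not pass in that fit either (adjusted p = 0.0549 and 0.055). In all 8 genes every Smchd1 KO value also lay under every WT value. Mean CPM in Smchd1 KO and WT was 224 and 426 for Tns3, 562 and 840 for Gars, and 366 and 402 for Hmgb2.

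Pluripotency genes were examined by state. Beside the counts of calls in these and the following lists, 1.63% of all genes tested rose and 2.35% fell. Of 15 genes of the primed state, which follows implantation, 3 fell and none rose, and their median log2 change was -0.78. Tcf15, a helix-loop-helix factor that primes ES cells to differentiate, had 24.2, 14.6 and 26.0 CPM in Dux KO and 72.0, 65.6 and 67.7 CPM in WT, a 3.22-fold fall (limma, adjusted p = 0.0142). Tcf15 was also under WT in Smchd1 KO cells, which keep Dux by their label, at 35.2, 22.6 and 24.8 CPM. Double KO cells had 39.3, 17.7 and 26.1 CPM of it. Dnmt3a, the de novo DNA methyltransferase gene, had 146, 126 and 185 CPM in Dux KO and 374, 367 and 371 CPM in WT, a 2.46-fold fall (adjusted p = 0.00655). It too was under WT in Smchd1 KO cells, at 289, 199.6 and 264 CPM. Sox4 fell 1.72-fold. Dnmt3b, the partner methyltransferase gene of Dnmt3a, had 163, 105 and 218 CPM in Dux KO and 226, 216 and 228 CPM in WT and did not pass (adjusted p = 0.294). In Dnmt3a and Tcf15 the Dux KO and WT groups lie far apart, while in Dnmt3b they overlap.

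Of 18 core pluripotency genes 1 fell, Utf1, a chromatin-bound factor of undifferentiated cells, with 149.5, 110.3 and 183 CPM in Dux KO and 244, 242 and 245 CPM in WT (limma, adjusted p = 0.0311). The median log2 change of the 18 was -0.39, against -0.03 over all genes. A negative change was found in 17 of the 18, beside 8542 of the 16200 genes tested. None of 19 naive-state genes passed, and their median was 0.08. Among 20 DNA methylation factors, Mbd3, a methyl-CpG-binding family gene of the NuRD complex, fell 1.49-fold beside Dnmt3a, and the median was -0.20. Mbd3 did not pass in edgeR (adjusted p = 0.052) or after centring (adjusted p = 0.0745).

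Of the 14 imprinted genes kept in the H19 to Kcnq1 region of chromosome 7, H19 and Phlda2, a placental growth regulator, fell, and the median of the 14 was -0.14. Phlda2 had 35.05, 43.5 and 16.1 CPM in Dux KO and 74.6, 70.1 and 74.1 CPM in WT (limma, adjusted p = 0.0482). Of 45 imprinted genes of other regions, Zim1, a maternally expressed zinc finger gene, rose 2.09-fold and Gab1, a growth factor adaptor, fell 1.43-fold. Gab1 lies on chromosome 8 and did not pass after centring (adjusted p = 0.143). Peg10, a paternally expressed gene derived from a retrotransposon, had 424, 297 and 1367 CPM in Dux KO and 1027, 1059.5 and 1041 CPM in WT (adjusted p = 0.434). Its Dux KO replicates 1 and 2 lay under WT and replicate 3 above it.

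The Hox genes, which pattern the body axis and are low in ES cells, included 4 that fell among 19 kept, and none rose. All 4 lie in the HoxA cluster on chromosome 6. Hoxa3 had 0.671, 0.618 and 0.590 CPM in Dux KO and 2.18, 2.54 and 1.80 CPM in WT, a 2.36-fold fall (limma, adjusted p = 0.0139). Hoxa9 had 0, 0 and 0.131 CPM in Dux KO, or 2 reads, and 1.05, 0.968 and 1.17 CPM in WT. Its ratio of reads, scaled for depth, was 22.5 with a counting interval of 6.15 to 187. On the log2(CPM + 0.5) scale, used for the folds of the other Hox genes here, Hoxa9 fell 2.89-fold. Hoxa5 and Hoxa7 fell 2.07-fold and 1.94-fold. In all 4 genes every Smchd1 KO value also lay under every WT value. After chromosome 6 was centred, Hoxa9 and Hoxa3 passed (adjusted p = 0.0393 and 0.0481) and Hoxa5 and Hoxa7 did not (adjusted p = 0.104 and 0.0975). The part of the chromosome 6 shift in these falls was not tested further.

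Genes driven by ATF4, a transcription factor of the amino acid and stress response, were read as a list. Of 20 kept, 3 fell and none rose, and the median log2 change was -0.66. Mthfd2, a mitochondrial folate enzyme gene, had 99.2, 84.0 and 85.4 CPM in Dux KO and 254, 246 and 250.3 CPM in WT, a 2.80-fold fall (limma, adjusted p = 0.00598). It lies on chromosome 6 and passed after centring (adjusted p = 0.0144). Phgdh, the first enzyme of serine synthesis, had 57.7, 60.8 and 63.2 CPM in Dux KO and 103, 107 and 100.4 CPM in WT, a 1.70-fold fall (adjusted p = 0.0172). Shmt2, which moves one-carbon units from serine in mitochondria, fell 1.61-fold, but did not pass after centring (adjusted p = 0.055). In these 3 genes every Dux KO value lay under every WT value, and so did every Smchd1 KO value. Asns, the asparagine synthetase gene, had 509.7, 359 and 605 CPM in Dux KO and 734, 751 and 742 CPM in WT, and Psat1, a further serine synthesis gene, had 413, 392 and 346 CPM in Dux KO and 591, 592 and 603 CPM in WT. Neither passed (adjusted p = 0.0788 and 0.116). Of 22 cholesterol synthesis genes 1 fell, and 16 fell when Dux KO replicate 3 was left out. The summed level of that list was 1242, 1356 and 2718 CPM in Dux KO and 1935, 1988 and 2015 CPM in WT.

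Targets of the tumour suppressor p53 included 4 that rose among 24 kept, none that fell, and a median log2 change of 0.22. Mdm2, the ubiquitin ligase gene that limits p53, had 194, 266 and 284 CPM in Dux KO and 149, 149 and 154 CPM in WT, a 1.62-fold rise (limma, adjusted p = 0.03). Plk2, a kinase gene, had 45.3, 76.0 and 105 CPM in Dux KO and 36.9, 35.4 and 37.3 CPM in WT (adjusted p = 0.0485). Eda2r, a gene of the TNF receptor family, and Perp, a desmosome gene, rose 1.47-fold and 1.40-fold. Trp53inp1, which encodes a p53-induced nuclear protein, had 296, 423 and 707 CPM in Dux KO and 262, 271 and 288 CPM in WT and did not pass (adjusted p = 0.131). Its groups did not overlap, and Dux KO replicate 3 was far above the other replicates.

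Of 20 epithelial genes 3 rose and none fell, with a median log2 change of 0.57. Beside Gpa33, Esrp1, an epithelial splicing regulator gene, had 60.9, 52.8 and 54.6 CPM in Dux KO and 28.4, 28.4 and 28.3 CPM in WT, a 1.96-fold rise (limma, adjusted p = 0.0304). Elf3, an epithelial ETS factor gene, rose 1.55-fold and passed also with chromosome 1 centred (adjusted p = 0.0419). Of 33 collagen genes Col20a1 and Col9a2, a cartilage collagen gene, rose, the second 2.67-fold, and the median was 0.46.

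Replication-dependent histone genes and ribosomal protein genes lay lower in most members but few passed. Of 63 histone genes 5 fell, and 47 lay lower in every Dux KO replicate than in any WT replicate, with a median of -0.62. Over all genes tested, 2.35% fell and 23.1% lay lower without overlap. Hist1h4c had 139.9, 122 and 152 CPM in Dux KO and 242, 249.998 and 239.8 CPM in WT, a 1.77-fold fall (limma, adjusted p = 0.0315). Hist2h2ac fell 2.12-fold, and Hist1h4j, Hist1h4a and Hist1h4b fell 2.05-fold, 1.93-fold and 1.72-fold. These H4 genes encode the same protein, so reads may be split among them. In the 5 histone genes that fell, every Smchd1 KO value also lay under every WT value, with means of 30.3 and 73.9 CPM for Hist2h2ac. Hist1h1c, a linker histone gene, had 432, 618 and 771 CPM in Dux KO and 813, 879.6 and 855 CPM in WT and did not pass (adjusted p = 0.204). Without Dux KO replicate 3, 28 histone genes passed as lower.

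Of 83 cytosolic ribosomal protein genes 3 fell and 50 lay lower without overlap, with a median of -0.31, beside the same 2.35% and 23.1% of all genes. Rpl22l1, a paralog of Rpl22, had 51.4, 57.3 and 53.6 CPM in Dux KO and 90.0, 92.0 and 90.2 CPM in WT, a 1.67-fold fall (limma, adjusted p = 0.0169). Rpl36 fell 1.40-fold. Rpl4 had 1819, 2062 and 2614 CPM in Dux KO and 2501, 2523 and 2465 CPM in WT and did not pass (adjusted p = 0.449). Without Dux KO replicate 3, 34 ribosomal protein genes passed as lower. None of the 17 mitochondrially encoded genes kept passed. Their summed level was 38889, 31197 and 39561 CPM in Dux KO and 26131, 25938 and 27863 CPM in WT, and the groups did not overlap. Among them mt-Co1, a respiratory chain subunit gene, had 10309.8, 8552 and 8959 CPM in Dux KO and 7164, 7300.2 and 7633 CPM in WT (adjusted p = 0.274).

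**Figure D4:**
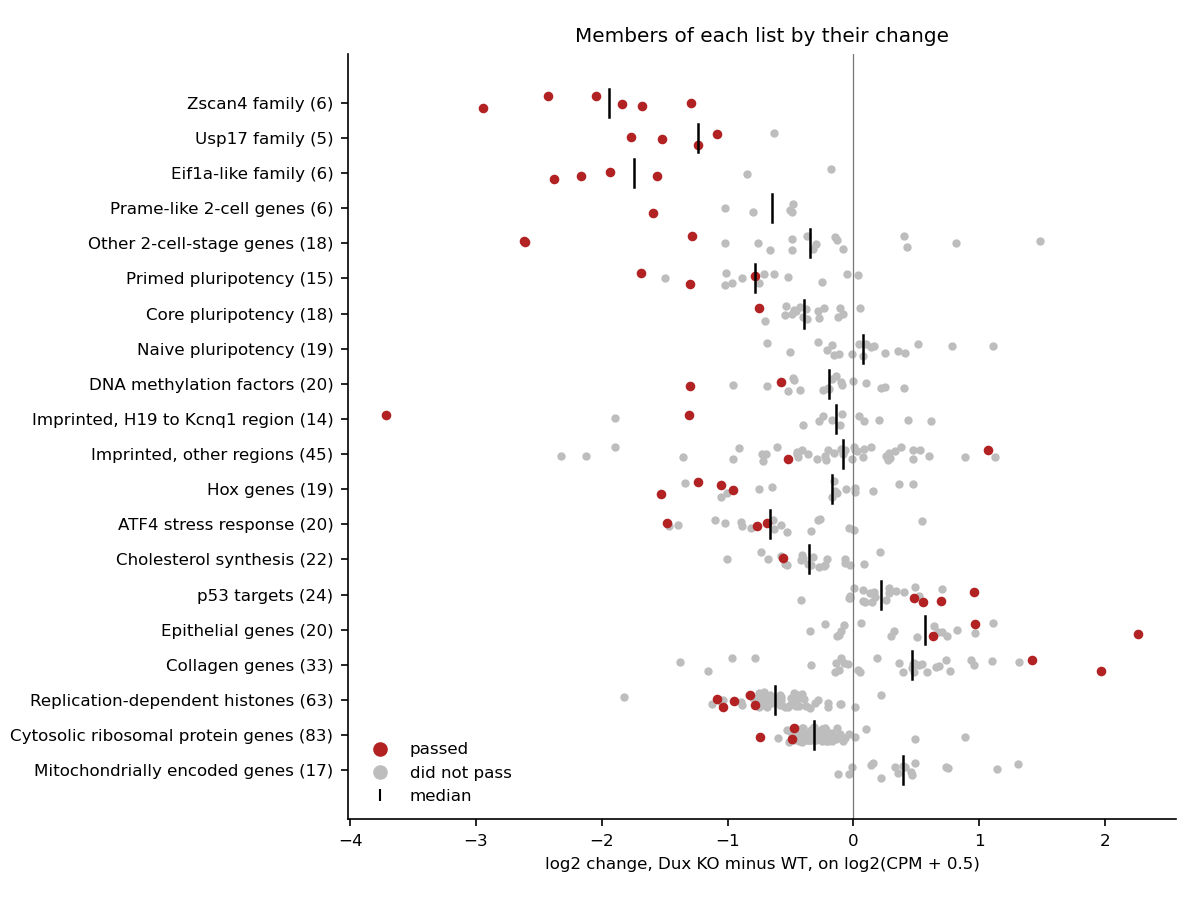
The plot gives the log2 change, Dux KO minus WT, on the log2(CPM + 0.5) scale (x axis) of every kept member of 20 gene lists (y axis, number of members kept in brackets), in red where the gene passed and grey where it did not, with a black line at the median. Red points lie right of 0 in the p53, epithelial and collagen lists and for Zim1 among imprinted genes of other regions, and left of 0 elsewhere, and the naive pluripotency and mitochondrial lists hold none.

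Markers of other cell types did not pass in any list. No gene passed among 24 endoderm, 13 mesoderm, 13 neural and ectoderm, 17 trophoblast and 19 fibroblast markers, and their medians ran from -0.23 to -0.05. Gbx2, an early neural and pluripotency homeobox gene, had 46.1, 13.5 and 30.9 CPM in Dux KO and 87.1, 76.8 and 84.5 CPM in WT (limma, adjusted p = 0.0545, and 0.0419 after chromosome 1 was centred). Fn1, the fibronectin gene, had 1080.5, 1215 and 940.4 CPM in Dux KO and 827, 805 and 836 CPM in WT (adjusted p = 0.106). Vim, which encodes vimentin, had 55.3, 66.1 and 87.9 CPM in Dux KO and 116, 113 and 118 CPM in WT (adjusted p = 0.0612). A single library stood apart in 3 marker lists. The summed endoderm markers were 2437, 2038 and 4425 CPM in Dux KO and 2297, 2264 and 2326 CPM in WT, and the trophoblast markers 2182, 2295 and 4559 CPM in Dux KO and 2881, 3145 and 2902 CPM in WT. The summed mesoderm markers were 32.7, 26.3 and 57.5 CPM in Dux KO and 40.9, 40.5 and 40.5 CPM in WT. Dux KO replicate 3 was the high one in all 3, and the part of these markers in the changes above was not tested.

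Signalling lists held few calls. No gene passed among 16 Wnt response, 11 BMP response, 19 FGF and ERK feedback and 11 LIF and STAT3 genes. Of 13 Nodal pathway genes 1 fell. Of 26 hypoxia and glycolysis genes Ankrd37 fell 1.68-fold but did not pass after its chromosome 8 was centred (limma, adjusted p = 0.128), and Pkm2, the pyruvate kinase gene, had 1473, 1916 and 2113 CPM in Dux KO and 1986, 2176 and 2030.4 CPM in WT (adjusted p = 0.485). Of 17 interferon response genes Ifit2 fell 1.74-fold. None of 31 germline genes passed, and Stag3, a meiotic cohesin gene, had 315, 249.9 and 140.4 CPM in Dux KO and 109.9, 115 and 108 CPM in WT (adjusted p = 0.101).

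The same loss was then read in cells without Smchd1, with Double KO set against Smchd1 KO, a comparison that shares no sample with Dux KO and WT. There 709 genes passed, or 4.38% of those tested, with 1.4% higher and 2.98% lower. Of the 644 genes called in Dux KO vs WT, 71 passed in the same direction in both, 15 higher and 56 lower, which is 11.02% of the calls of Dux KO vs WT and 10.01% of the calls of Double KO vs Smchd1 KO. The 56 included all 18 of the 2-cell-stage genes. Zscan4d had 0, 0 and 0.119 CPM in Double KO and 18.4, 22.4 and 9.45 CPM in Smchd1 KO (limma, adjusted p = 1.15e-06). Usp26 had 1.49, 2.75 and 1.19 CPM in Double KO and 33.4, 19.3 and 22.3 CPM in Smchd1 KO (adjusted p = 0.000336). In both genes every Smchd1 KO value lay above every WT value, and the Dux KO and Double KO values lay below them.

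Single libraries stood apart on whole chromosomes here too. The median log2 deviation of chromosome 1 from the WT mean was -0.12, -0.12 and 0.45 in Double KO replicates 1, 2 and 3 and -0.02 in each Smchd1 KO replicate. That of chromosome 6 was -0.18, -0.14 and -0.59 in Double KO and -0.05, -0.58 and -0.03 in Smchd1 KO. After chromosomes were centred in every sample, 13 of the 15 genes higher and 40 of the 56 genes lower in both comparisons remained.

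Genes that rose in both comparisons included Mid1, Dst, Pcnxl2, B230325K18Rik, Hmcn1 and Sag. Mid1 had 12.005, 7.22 and 3.56 CPM in Double KO and 1.06, 0.966 and 1.12 CPM in Smchd1 KO (limma, adjusted p = 0.00428). Dst had 1473, 1006 and 894 CPM in Double KO and 471, 588 and 569 CPM in Smchd1 KO (adjusted p = 0.0194). Dst, Hmcn1 and Sag lie on chromosome 1, and in Double KO vs Smchd1 KO Dst did not pass after centring (limma, adjusted p = 0.0543), while Hmcn1 and Sag did (adjusted p = 0.0309 and 0.0355). Hmcn1, an extracellular matrix gene, and Sag, the arrestin gene of the retina, rose 1.94-fold and 2.09-fold in Dux KO vs WT. With the transcript length trend removed, Hmcn1, Pcnxl2 and B230325K18Rik did not pass in Dux KO vs WT (limma, adjusted p = 0.238, 0.0549 and 0.0521). Mid1, Dst and Sag passed in that fit.

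The test of the difference between the changes in the 2 comparisons was passed by 0.512% of genes, 0.358% with a higher and 0.154% with a lower change in Dux KO vs WT. For 2-cell-stage genes, which lie at or next to 0 reads in both Dux KO and Double KO, that difference follows the levels in Smchd1 KO and WT and the added constant. Other large changes were not called again. H19 had 10.5, 13.3 and 2.44 CPM in Double KO and 6.39, 12.7 and 9.36 CPM in Smchd1 KO (limma, adjusted p = 0.694), and the difference between its changes in the 2 comparisons just missed the threshold (adjusted p = 0.0564). Dnmt3a had 288, 212 and 300.3 CPM in Double KO and 289, 199.6 and 264 CPM in Smchd1 KO. Mthfd2 had 184, 103 and 134 CPM in Double KO and 163, 107 and 151 CPM in Smchd1 KO. In both genes the Double KO and Smchd1 KO values overlap, and the difference of the changes passed (adjusted p = 0.0358 for Dnmt3a and 0.0416 for Mthfd2). Spna1 had 40.3, 16.7 and 31.0 CPM in Double KO and 13.3, 18.99 and 14.7 CPM in Smchd1 KO, with a difference that passed (adjusted p = 0.0181). Smchd1 KO cells were themselves under WT in H19, Dnmt3a, Mthfd2 and Spna1, whose WT means were 26.6, 371, 250 and 62.1 CPM. Of 6 genes called in opposite directions, 3 were Hoxa3, Hoxa5 and Hoxa7, which were higher in Double KO than in Smchd1 KO. After chromosome 6 was centred, Hoxa5 did not pass in Double KO vs Smchd1 KO (limma, adjusted p = 0.085). The remaining 3 were Cilp2, Serpinb6c and Spink10, named after their values were seen.

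**Figure D5:**
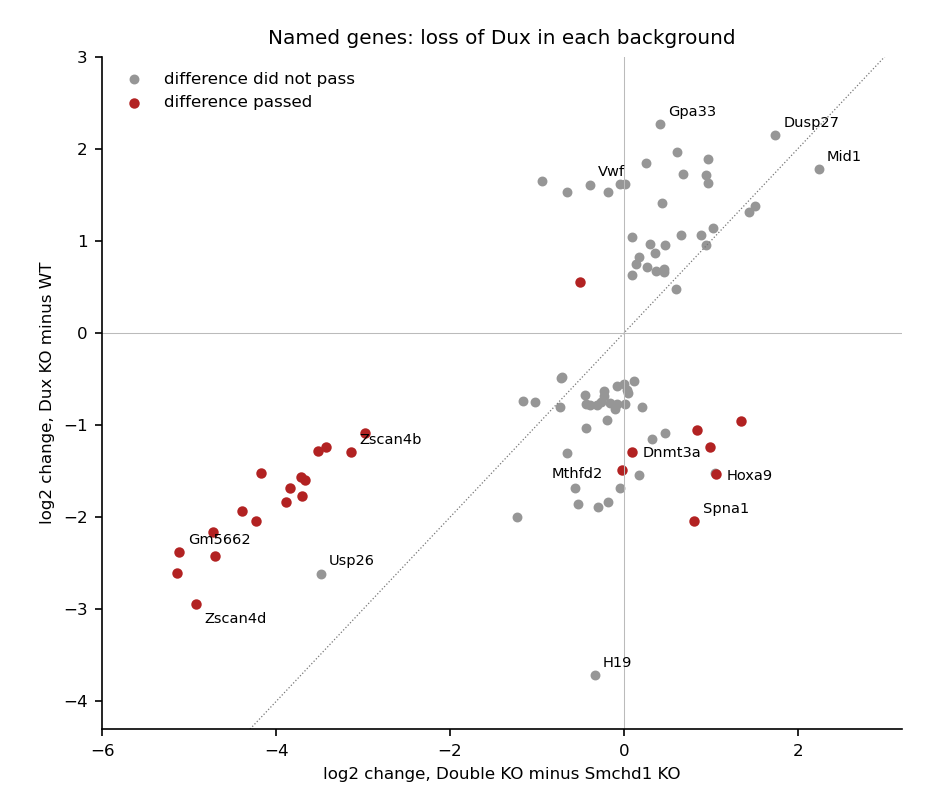
The plot gives, for the 96 named genes that passed in Dux KO vs WT, the log2 change of Dux KO minus WT (y axis) against that of Double KO minus Smchd1 KO (x axis), in red where the difference between them passed; the dotted line marks equal changes. The 2-cell genes lie at the lower left above the line, H19 (-3.72 and -0.34), Dnmt3a (-1.30 and 0.09) and Mthfd2 (-1.48 and -0.02) lie low near 0 on the x axis, and Mid1 (1.78 and 2.24) lies at the upper right.

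Calls were unevenly placed on the genome. On chromosome 8, 74 of 837 genes fell (8.84%) and 1 rose, and on chromosome 6, 28 of 753 fell (3.72%). On chromosome 1, 51 of 846 rose (6.03%). On the other chromosomes 0.706% to 2.56% rose and 0.931% to 2.65% fell. After the medians of the chromosomes were centred, chromosome 8 held 15 rises and 17 falls, chromosome 6 held 19 and 16, and chromosome 1 held 35 and 18, and 474 of the 644 calls remained. Genes that rose also had longer transcripts. The median longest transcript was 4577 bases in genes that rose, 2244 bases in genes that fell and 3145.5 bases in all genes tested. Across 10621 genes above 5 CPM in WT, the Spearman correlation of the deviation from the WT mean with that length was 0.38, 0.38 and 0.12 in the Dux KO replicates and 0.06, -0.17 and 0.14 in WT. Genes are not independent replicates, and all points of a sample share its library. With the length trend of each sample removed, an alternative added after the data were seen, 378 of the 644 calls remained, and 18 2-cell-stage genes passed as lower and 1 as higher. Whether RNA quality or library preparation differed between the genotypes was not tested.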

How the data were processed

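RNA of mouse ES cells was sequenced from whole-cell total RNA depleted of ribosomal RNA. Per the submitters' processing notes, Trim Galore, STAR 2.5.1, limma 3.38.2 and the build mm9 were used; the read counter and annotation are not given in the sources used here. The authors deposited a normalized signal for every gene under the name CPM. Column totals of 934493 to 1054029 show an effective library size. Whole reads were recovered from the step between low values, with 100% of those below 200 reads no more than 0.1 read away from an integer.

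WT runs 1 and 4, 2 and 5, and 3 and 6 were averaged and counted once. Smchd1 KO runs carry only the genotype in their column names, so runs were matched by how closely their values agree, which touches the pooled spread and the Double KO comparison. The second table, with 3 columns of no sample of the series, was not used. Genes of at least 0.5 CPM in 3 biological samples were fitted as log2(CPM + 0.5) with limma 3.58.1 (R 4.3.3, intensity trend), with 1 mean per genotype for the 4 genotypes Dux KO, Double KO, Smchd1 KO and WT. Tests are two-sided with Benjamini-Hochberg adjustment over 16200 genes. Fold changes are on that scale and understate the change of low genes. Recovered reads were tested with edgeR 4.0.16, which called 933 genes, and DESeq2 1.42.0. The code was checked on simulated data. A limit of 3 reads over the group is used where a gene had no read, and 95% exact intervals where it had 1 to 3. Chromosomes and transcript lengths come from GENCODE M21 and upstream sequence from RefSeq, both GRCm38, with no coordinate of mm9 used. Named genes are the 15 largest changes each way above 2 CPM, the 8 most abundant each way of at least 1.5-fold, up to 6 called and 2 abundant members per list, and 6 each way called in both backgrounds. The members, lists and fit were chosen with earlier results of these data known. Some genes are not reported here.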

Additional observations from a re-analysis of the deposited data

Results flagged for a closer look

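In 25 named genes the change that came with the loss of Dux differed between WT and Smchd1 KO backgrounds by the interaction test of limma, which 83 genes or 0.512% of those tested passed. Each value below is the adjusted p of that difference. For 17 genes of the 2-cell stage the log2(CPM + 0.5) change was more negative in Double KO vs Smchd1 KO than in Dux KO vs WT. Dux KO and Double KO both lie at or next to 0 reads in them, so these values follow the level in Smchd1 KO and WT and the added constant, and do not show a larger fall. In the Zscan4 family the values were 0.0412 for Zscan4d, 0.0328 for Zscan4c, 0.0327 for Zscan4e, 0.0374 for Zscan4-ps2, 0.0224 for Zscan4f and 0.0331 for Zscan4b. In the Usp17 family they were 0.0327 for Dub3, 0.0181 for Usp17l5, 0.0328 for Dub1a and 0.0328 for Dub1. Among Eif1a-like genes they were 0.0224 for Gm5662, 0.0236 for Gm8300, 0.0327 for BB287469 and 0.0328 for Gm2016, and for the other 2-cell genes 0.0328 for Gm12794, 0.0181 for Gm8994 and 0.0181 for Gm6189. All 17 had a lower mean in WT than in Smchd1 KO. With a constant of 0.1 in place of 0.5, 1 of the 17 passed, and by edgeR 0 of the 17 passed (0 at an unadjusted p under 0.05), where 7 genes passed in all.

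The remaining 8 genes changed in Dux KO vs WT and moved less, or the other way, in Double KO vs Smchd1 KO. In all 8, Smchd1 KO cells, which keep Dux by their label, also lay on the Dux KO side of WT. Mean CPM in Smchd1 KO and WT was 15.7 and 62.1 for Spna1, 251 and 371 for Dnmt3a, and 140 and 250 for Mthfd2. It was 192 and 115 for Eda2r, 0.289 and 1.06 for Hoxa9, and 0.595 and 2.17 for Hoxa3. The values below therefore follow the levels in Smchd1 KO and WT too. Spna1 had an adjusted p of 0.0181, Dnmt3a of 0.0358 and Mthfd2 of 0.0416. Eda2r, which rose in Dux KO, had 110.3, 166 and 136 CPM in Double KO and 189.7, 186 and 201 CPM in Smchd1 KO, with an adjusted p of 0.0391. In the HoxA cluster the values were 0.0355 for Hoxa9, 0.0181 for Hoxa3, 0.0236 for Hoxa5 and 0.0224 for Hoxa7. Hoxa7 had 2.72, 1.65 and 2.85 CPM in Double KO and 0.660, 0.386 and 0.887 CPM in Smchd1 KO, so its Double KO values all lay higher, while in Dux KO all lay below WT. These differences were not seen in every fit: leaving out Dux KO replicate 2 or any WT replicate left 0 genes past the threshold for the difference by limma, with 1962 to 2256 genes at an unadjusted p under 0.05. By edgeR 3 of the 8 passed, and with a constant of 0.1 by limma 4.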

How the results depend on the processing

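The call counts depend on how the spread is estimated. For Dux KO vs WT, 644 genes passed; 338 passed with no filter on low values, 344 after quantile normalization, 413 with the length trend removed, 80 without Smchd1 KO in the fit, 6431 with array quality weights and 2606 with DESeq2, and leaving out single replicates gave 2 to 2790. For Double KO vs Smchd1 KO, 709 passed; array weights gave 2673, DESeq2 2456 and leaving out single replicates 222 to 1856. For the difference between these effects, 83 passed; a constant of 0.1 gave 9, a filter of 2 CPM 11, array weights 2242, edgeR 7, DESeq2 948, and leaving out single replicates 0 to 673. The cause of these shifts was not tested. Of the 96 named genes that passed, none changed direction in any of these settings. Of the 96, 33 kept their call in every alternative that kept all samples, among them H19, Dnmt3a, Mthfd2, Tcf15, Usp26, Gpa33 and Mid1, and 2, Zscan4d and Gm8994, kept it also without each replicate in turn. Centring of chromosome medians ended 17 of the 96 calls, removal of the length trend 24 and edgeR 7. The count of 2-cell-stage genes that fell was 18, with 9 to 29 in the alternatives that kept all samples and 2 to 21 without single replicates. The main fit did not pair samples by replicate number. The deviations of same-numbered samples from their group means correlated at 0.33, 0.23 and 0.07, and those of differently numbered samples at -0.31 to 0.14. Whether the numbers mark shared batches was not tested. With the replicate number as a block 667 genes passed, 547 of them among the 644, and 6 of the 96 calls were lost. Depth in Dux KO limits genes without reads to a bound of 0.0694 CPM over the group.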
